A study of Mus musculus with 19 samples.

Results

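The broad H3K4me3 peaks of the mouse visceral yolk sac (VYS) are described here. They were chosen by their width alone: of 22343 peaks called in VYS at E12.5 (E, embryonic day), the 372 that spanned at least 4000 bp were taken, 1.66% of the peaks and 5.81% of the covered sequence. Width was read from a single chromatin immunoprecipitation library of native chromatin from pooled FVB yolk sacs, so it has no replicate, and that tissue held both the endoderm and the mesoderm of the sac. The other measurements were not part of this rule, but the members and the gene lists were chosen with earlier results of these data known. RNA-seq was made of VYS endoderm (ysE) at E12.5 (1 library), ysE and VYS mesoderm at E9.25 (2 libraries each), E12.5 liver (2 libraries), all FVB, and of cystic embryoid bodies (EBs), which are fluid-filled aggregates that form when embryonic stem (ES) cells differentiate, at day 10 and day 15 (4 libraries, C57Bl/6x129, each day with the clones called A and B here). Whole-genome bisulfite sequencing was made of E12.5 ysE, E12.5 liver and day 15 cystic EBs, each from a CAST x FVB (CxF) and an FVB x CAST (FxC) cross, the EBs from a single ES cell clone per cross. Where labels do not name separate animals, p-values measure only the spread between these samples.

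H3K4me3 is trimethylation of lysine 4 of histone H3, a mark laid down at active and poised gene starts, mostly over unmethylated CpG islands, by the Set1 and Mll families of methyltransferases. At most genes it covers a short interval around the start. Wide domains are known from many tissues at genes for cell identity and at very strongly transcribed genes. The VYS has an outer endoderm, which takes up and secretes nutrients and makes plasma proteins much as the liver does, and an inner mesoderm with mesothelium, blood vessels and the first blood cells.

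The start regions of 5 genes at broad peaks are printed because the results turn on them: Afp and Foxa3 for the endoderm, Hand2 and Meis2 for the mesoderm, and the imprinted gene Peg3. Each is 300 bases from 250 before to 50 after the annotated start (RefSeq, GRCm38.p6), in the direction of the gene, with every CpG in capitals.
Afp (chr5:90490464-90490763, plus strand): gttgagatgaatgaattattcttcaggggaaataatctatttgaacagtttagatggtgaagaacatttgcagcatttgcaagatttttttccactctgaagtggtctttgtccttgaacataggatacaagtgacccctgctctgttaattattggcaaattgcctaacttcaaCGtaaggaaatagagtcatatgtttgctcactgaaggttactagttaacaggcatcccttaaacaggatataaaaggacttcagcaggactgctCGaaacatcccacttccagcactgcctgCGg
Foxa3 (chr7:19023490-19023789, minus strand): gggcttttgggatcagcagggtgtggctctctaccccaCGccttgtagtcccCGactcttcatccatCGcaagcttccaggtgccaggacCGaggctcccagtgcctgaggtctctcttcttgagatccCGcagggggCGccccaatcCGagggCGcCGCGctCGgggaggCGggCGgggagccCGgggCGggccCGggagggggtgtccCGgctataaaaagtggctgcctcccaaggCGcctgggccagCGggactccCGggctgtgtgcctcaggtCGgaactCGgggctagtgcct
Hand2 (chr8:57320733-57321032, plus strand): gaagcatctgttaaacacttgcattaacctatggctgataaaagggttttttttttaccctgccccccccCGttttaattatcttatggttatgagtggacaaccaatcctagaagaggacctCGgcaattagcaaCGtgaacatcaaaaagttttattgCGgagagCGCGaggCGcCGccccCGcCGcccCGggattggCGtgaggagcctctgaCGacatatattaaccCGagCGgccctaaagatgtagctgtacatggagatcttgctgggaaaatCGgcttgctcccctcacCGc
Meis2 (chr2:116064570-116064869, minus strand): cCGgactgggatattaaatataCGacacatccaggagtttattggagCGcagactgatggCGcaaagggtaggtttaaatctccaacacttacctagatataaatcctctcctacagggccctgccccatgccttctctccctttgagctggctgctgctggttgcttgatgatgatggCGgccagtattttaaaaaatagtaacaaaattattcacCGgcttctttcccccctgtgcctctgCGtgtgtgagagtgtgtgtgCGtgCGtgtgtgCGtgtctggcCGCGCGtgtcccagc
Peg3 (chr7:6730370-6730669, minus strand): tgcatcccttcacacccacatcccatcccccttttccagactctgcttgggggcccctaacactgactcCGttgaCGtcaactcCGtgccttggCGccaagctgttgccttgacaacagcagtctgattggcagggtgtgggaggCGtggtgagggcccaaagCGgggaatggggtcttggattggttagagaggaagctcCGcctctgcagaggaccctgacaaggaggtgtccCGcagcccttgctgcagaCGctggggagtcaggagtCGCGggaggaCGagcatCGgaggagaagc
The Afp window holds 3 CpGs, against 22 for Foxa3, 17 for Hand2, 13 for Meis2 and 13 for Peg3. The median was 23.0 CpGs over the 409 windows whose start lies in a broad peak, 21.0 over the 11286 at shorter peaks and 4.0 over the 9709 with no peak. Fewer than 5 CpGs, as at Afp, were found in 4.16% of the windows at broad peaks, in 3.78% at shorter peaks and in 55.2% of those with no peak. The letters TATAAA, searched on both strands, stand in 10.8% of the windows at broad peaks, in 6.15% at shorter peaks and in 19.4% with no peak. Of all 21404 windows of measured genes 12.2% hold them.

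Broad peaks were 4000 to 10846 bp wide, with a median of 4523.5 bp. Shorter peaks had a median of 1169 bp. The peak caller's score was at or above its most frequent value in 362 of the 372 broad peaks and in 23.5% of the shorter ones, so the score hardly orders the members. Just inside the limit lay peaks at Lpar6 (4000 bp), at Helz (4002 bp) and at BC005537 (4002 bp). Just outside it lay those at Flt1 (3998 bp), Id2 (3998 bp) and Espn (3996 bp). The member with the lowest score, 239.65, lies on the ribosomal repeat Rn18s-rs5 (chr17:39842906-39848920). It also had the most bisulfite reads, 201 to 595 in a library, and is left out of the profile of methylation below.

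An annotated gene end lay in or within 1 kb of 353 broad peaks (94.9%, against 70.9% of shorter peaks). Another 18 lay inside a gene without reaching its end, and 1 touched no gene. In all, 444 genes with RNA-seq values were at broad peaks, 1.91% of the 23244 measured, and 13282 more were at shorter peaks only. The start was known with its strand for 335 of the 444. For the other 109 either end of the gene was accepted, so some may be 3' ends. Among the 444 were 397 protein-coding genes, 29 long noncoding RNAs, 12 microRNA genes and 5 small nucleolar RNAs. A further 103 annotated genes at these peaks, such as the methyltransferase gene Setd1b under a 7439 bp peak (chr5:123136659-123144097), had no row in the RNA-seq table. Ttr, which codes for a thyroid hormone carrier made by yolk sac endoderm, falls outside the 444, since its annotated start is over 1 kb from the 4289 bp peak that covers its body (chr18:20665349-20669637).

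The broad peaks reached mainly downstream of the start. Over the 152 that held a stranded start and no second gene, the median extent was 950.5 bp upstream and 3615 bp downstream, and 141 of them (92.8%) were longer downstream. Shorter peaks had the same lean, with 90.0% longer downstream, at medians of 485 bp and 1160 bp. The Afp peak ran 215 bp upstream and 4220 bp into the gene, that of Apob 499 bp and 4592 bp, and that of the mesoderm regulator Meis2 1225 bp and 3338 bp. The whole gene lay within the peak for 26 of 397 protein-coding members (6.55%), among them the transcription factor genes Hand1, Hand2, Foxf1, Tcf21, Cebpa and Cebpb. Of protein-coding genes at shorter peaks, 0.849% lay whole within their peak.

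Genes of both layers of the sac were at these peaks. The widest, 10846 bp (chr5:57714147-57724992), is at Pcdh7, a protocadherin gene. Next came Col1a1, for a chain of type I collagen (8920 bp), Hand2, a transcription factor of heart and lateral mesoderm (8717 bp), Maf, a leucine zipper factor (8461 bp), the noncoding RNA Malat1 (8235 bp), Zfp608 (7946 bp) and Nkx2-3, a homeobox gene of gut and spleen mesoderm (7731 bp). Gata6, which extra-embryonic endoderm needs, had a peak of 7649 bp, and Ptch1, the Hedgehog receptor, 7255 bp. Of 26 listed mesoderm and mesothelium regulators 12 were at a broad peak, among them Hand1, Hand2, Foxf1, Tbx3, Tbx20, Meis1, Meis2, Tcf21, Snai2, Bmp4 and Zeb2. Of 21 ysE and visceral endoderm genes 6 were, which were Afp, Apob, Lrp2, Dab2, Trf and Rbp4, and of 24 endoderm regulators 6 were, among them Gata6, Foxa3, Nr2f2, Cebpa and Tcf7l2. Of 36 genes of Wnt, BMP, FGF and Hedgehog signalling 7 were, which were Ptch1, Bmp4, Smad6, Smad7, Dusp6, Vegfa and Jag1. No broad peak was at any of the 21 endothelial, 15 erythroid, 18 neural or 39 Hox genes listed, although 18, 8, 8 and 27 of these were at shorter peaks. With 1.91% of all measured genes at a broad peak, a list of this size would hold few or none, and Flt1 (3998 bp), Kdr (3899 bp) and Hoxc6 (3853 bp) lay just under the limit. The remaining lists gave Kmt2d and Setd1b of 12 genes of H3K4 methyltransferase complexes, Cebpb of 11 macrophage genes, Tbx3 of 10 liver genes, Actb of 10 housekeeping genes and none of 5 H3K4 demethylase genes.

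Member genes had higher transcript levels than genes at shorter peaks in each of the 11 libraries, as the plot of RPKM by library shows (RPKM, reads scaled to transcript length and library size). In E12.5 ysE the median was 7.45 RPKM at broad and 4.42 at shorter peaks. In E9.25 ysE it was 7.13 ± 0.622 (SD, n = 2) against 4.25 ± 0.262, and in E9.25 mesoderm 8.76 ± 0.215 (n = 2) against 5.10 ± 0.0474. Liver gave 5.69 ± 0.0551 (n = 2) against 3.51 ± 0.172, and cystic EBs 8.67 ± 0.811 (n = 4) against 4.86 ± 0.475. The gap exceeded the spread between libraries in every replicated group. It depended on the limit in ysE: at peaks of at least 5000 bp the median was 3.86 RPKM at E12.5 and 3.78 at E9.25, below the medians of shorter peaks given above. Genes with no peak had medians of at most 0.019 RPKM. In E12.5 ysE 80.2% of member genes reached 1 RPKM, against 71.1% of genes at shorter peaks, and in mesoderm 90.7% did, against 76.9%.

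**Figure D1:**
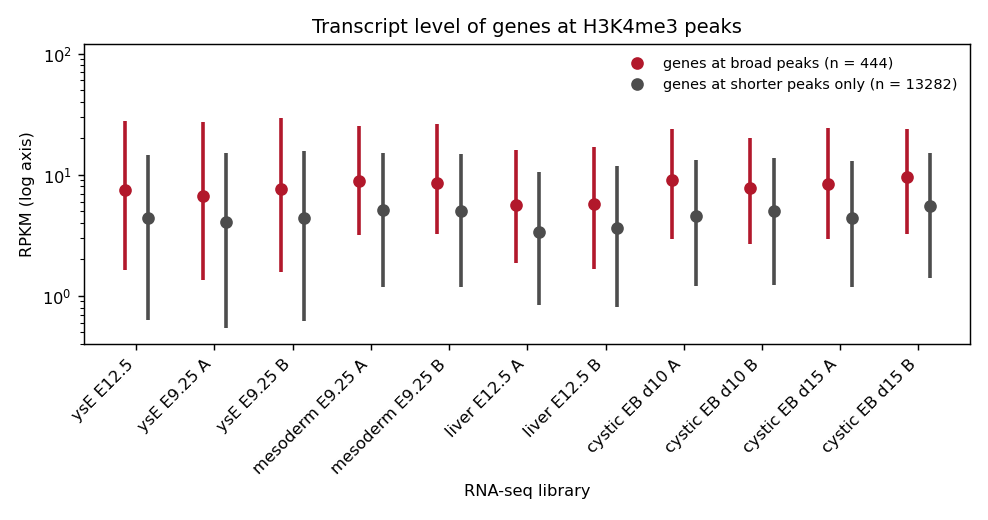
RPKM on a log axis in each of the 11 RNA-seq libraries for genes at broad peaks (red, n = 444) and at shorter peaks only (grey, n = 13282). Points are medians and bars run from the first to the third quartile over genes. The red median lies above the grey in all 11 libraries, for example 7.45 against 4.42 in E12.5 ysE.

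The members ranged from the most abundant transcripts of the yolk sac to genes that were not detected in its endoderm. At the top, 41 member genes reached 100 RPKM in E12.5 ysE. Afp, the fetal serum carrier alpha-fetoprotein, stood at 35558 RPKM there, at 6071 and 6628 in E9.25 ysE, at 700.4 and 1255 in mesoderm, at 1396 and 2471 in liver and between 25.8 and 688.0 in the cystic EBs. Trf, for the iron carrier transferrin, had 8328 RPKM in E12.5 ysE and no more than 18.3 in any cystic EB library. Selenop, for the selenium carrier of plasma (1360 RPKM), Fgg, for the gamma chain of fibrinogen (1276), Actb, for beta-actin (1271), and Apob, for the apolipoprotein of secreted lipoproteins (968.4), followed, with Snord17 (849.2), Morf4l2 (648.4) and the IgG receptor gene Fcgrt (542.6). At the other end, 88 of the 444 were under 1 RPKM in E12.5 ysE. Of these 88, 58 had a mean of at least 1 RPKM in E9.25 mesoderm. The reverse, at least 1 RPKM in E12.5 ysE and a mean under 1 in mesoderm, was seen for 10 genes, among them Cebpa and Tbx3. The 58 and the 10 set 1 library of E12.5 against libraries of E9.25, and no count over all genes stands beside them. The part that ysE transcripts in the mesoderm libraries have in these counts was not tested. Under 1 RPKM in every library were 19 members, among them the transcription repressor genes Hes7 and Bcl6, and 295 members were at 1 RPKM or more in all.

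To ask which layer of the sac the genes belong to, E9.25 ysE was compared with E9.25 mesoderm. Of the 444 members 437 passed the filter on low counts. Of these, 85 (19.4%) were higher in ysE, where 13.7% of all 18664 genes tested were, and 95 (21.7%) were higher in mesoderm, where 16.2% of all genes were (edgeR quasi-likelihood test, Benjamini-Hochberg adjusted p below 0.05). The peaks were called in whole yolk sac, which holds both layers, so a gap to all genes is not independent of how members were chosen. Among genes at shorter peaks, called in the same tissue, the shares were 16.5% and 16.7%. Each share moved by more than 1.5 times with the libraries used. The share higher in ysE was 8.74% without mesoderm replicate A, 12.9% without mesoderm replicate B, 12.9% without ysE replicate A and 12.4% without ysE replicate B, and the share higher in mesoderm was 11.95% without ysE replicate A. When these 4 libraries were fitted alone, the shares were 33.9% and 33.5%. The shares of all genes under these settings are not given here, and the 13.7% and 16.2% belong to the main fit.

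Higher in E9.25 ysE were the regulators Foxa3 and Cebpa and the secretory and uptake genes Apob, Lrp2, Dab2, Rbp4 and Fgg. Apob and Fgg lost the call without any 1 of the 4 libraries (adjusted p up to 0.139 and 0.135, edgeR), and Dab2 and Rbp4 without mesoderm replicate A or ysE replicate B (up to 0.0981 and 0.104). Of the other endoderm regulators at broad peaks Nr2f2 was higher in mesoderm, at 3.39 and 3.2 against 0.73 and 0.943 RPKM (log2 fold change −1.66, adjusted p = 0.0202, edgeR), a call also lost without any 1 library. Gata6 did not pass, at 1.84 and 2.31 RPKM in ysE and 4.63 and 4.54 in mesoderm (adjusted p = 0.138, edgeR), but was called higher in mesoderm when only these 4 libraries were fitted, with or without a replicate block (down to 0.00271). Tcf7l2 did not pass (adjusted p = 0.703, edgeR). Foxa3, a forkhead factor of endoderm, stood at 24.5 and 30.9 RPKM in ysE and at 0.91 and 1.97 in mesoderm. The groups did not overlap, with a log2 fold change of 4.57 (SE 0.41, adjusted p = 0.000182 by edgeR). Lrp2, the large endocytic receptor megalin, had 85.9 and 96.1 RPKM in ysE and 16.8 and 23.0 in mesoderm, a log2 fold change of 2.51 (SE 0.42, adjusted p = 0.00211, edgeR). Fgg had 257.4 and 257.0 RPKM in ysE and 17.5 and 32.7 in mesoderm. Maob, for a monoamine oxidase, and BC065397 were also among the 5 largest rises, at log2 fold changes of 3.70 and 4.07, though Maob lost its call without mesoderm replicate A (adjusted p = 0.0543, edgeR). Afp and Trf did not pass the test (adjusted p = 0.125 and 0.0592, edgeR), although their ysE libraries lay above their mesoderm libraries. Their log2 fold changes were 3.01 and 3.41, and both passed when only these 4 libraries were fitted, with or without a replicate block (adjusted p down to 2.92e-05 and 2.33e-05, edgeR), Trf with DESeq2 as well. BC065397 lies beside Morf4l2 under a shared peak, and both were higher in ysE.

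Higher in mesoderm were 9 of the 12 mesoderm regulators at broad peaks. Hand2 had 10.1 and 7.42 RPKM in mesoderm, 0.405 and 0.537 in E9.25 ysE and 0.042 in E12.5 ysE. Its E9.25 groups did not overlap (log2 fold change −3.89, SE 0.92, adjusted p = 0.0106, edgeR). Nkx2-3 had 6.83 and 5.89 RPKM in mesoderm against 0.155 and 0.164 in E9.25 ysE (log2 fold change −4.99, SE 1.09, adjusted p = 0.00757, edgeR). Tbx20, a T-box factor, had 23.3 and 24.1 against 0.863 and 0.954 RPKM. Bmp4, the ligand, had 18.3 and 17.6 against 0.538 and 0.694. Zeb2, a repressor of epithelial genes, had 6.94 and 7.55 against 0.293 and 0.293. The matrix genes Col1a1 (174.5 and 197.5 RPKM in mesoderm), Col3a1 (773.5 and 643.9) and Lum (249.5 and 221.0) were at 7.73 to 15.5, 15.6 to 23.4 and 4.93 to 6.62 RPKM in E9.25 ysE. Without any 1 of the 4 libraries Col1a1 and Lum lost the call (adjusted p up to 0.137, edgeR). Without ysE replicate A it was also lost by Col3a1, Nkx2-3, Hand1, Hand2, Meis2, Snai2 and Tcf21 (up to 0.0945), so that of the 9 regulators 4 kept it, Foxf1, Tbx20, Bmp4 and Zeb2. Without ysE replicate B it was lost by Nkx2-3, Hand2, Meis2 and Snai2. Of the other mesoderm regulators Meis1 did not pass the test, at adjusted p = 0.0856 (edgeR), but was called higher in mesoderm with DESeq2 and when only these 4 libraries were fitted, with or without a replicate block (down to 7.95e-05). Tbx3 was higher in ysE (1.72 and 2.40 against 0.66 and 0.708 RPKM, adjusted p = 0.00855, edgeR), a call lost without mesoderm replicate A or ysE replicate B (up to 0.0696).

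Fewer cells of a layer and less RNA per cell cannot be told apart in these bulk samples, and the samples differed in other cell types. The summed RPKM of the 15 erythroid genes was 938 and 1122 in E9.25 ysE and 48014 and 38198 in mesoderm, and all 15 passed the test as lower in ysE. That of the 21 endothelial genes was 12.9 and 16.5 against 341.8 and 313.8, with 19 lower. That of the 21 ysE genes was 16051 and 17932 against 1686 and 2986, with 17 higher. In E12.5 ysE all 21 endothelial genes were under 1 RPKM. The part of these other cells in the counts above was not tested.

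**Figure D2:**
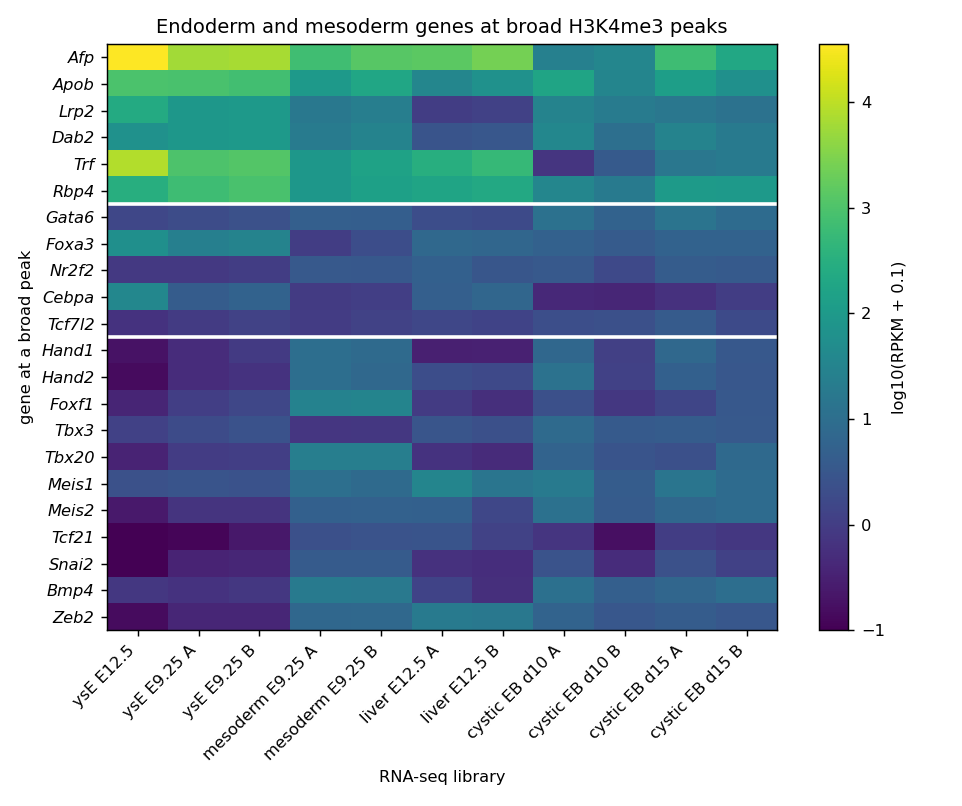
Transcript level, as log10(RPKM + 0.1), of listed ysE genes (top), endoderm regulators (middle) and mesoderm regulators (bottom) at broad peaks, in the 11 RNA-seq libraries. Afp reaches 35558 RPKM in E12.5 ysE, whereas Hand2 is at 0.042 there and at 7.42 to 10.1 in mesoderm.

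Among the widest members, genes higher in mesoderm outnumbered those higher in ysE, as the plot of width against fold change shows. This is a description, since width chose the members. Of 47 genes at the 41 peaks of 6000 bp or more, all tested, 20 were higher in mesoderm and 4 in ysE. The 20 include both genes of a shared peak for Pcdh7 with 4932441J04Rik, Nrp1 with Mir1903 and Zeb2 with Zeb2os. Of 319 genes at the 262 peaks from 4000 to below 5000 bp, 313 were tested, 54 were higher in mesoderm and 68 in ysE. Between these limits, at 69 peaks, 78 of 79 genes were tested, with 21 and 13. The median level in E12.5 ysE was 2.3 RPKM at the widest peaks, against 8.34 at the narrowest of the members, and the median of the mesoderm means was 7.24 against 8.85. In each bin these counts stand against 16.2% and 13.7% of all genes. The widest peak with a gene called higher in ysE was at Sin3a, a corepressor gene (7294 bp), with 16.95 and 17.0 RPKM in ysE and 11.4 and 13 in mesoderm, a call lost without any 1 of these 4 libraries (adjusted p up to 0.196, edgeR). At peaks of 6000 bp or more, calls for mesoderm were lost as well. Col1a1 and Lum lost theirs without any 1 of the E9.25 libraries. Hand2 and Nkx2-3 did when either ysE library was left out, and Ptch1 without ysE replicate A. Pcdh7, Zfp608, Marcks, Tbx20 and Zeb2 kept theirs in every such fit. With the limit at 5000 bp, 33.1% of the genes tested were higher in mesoderm and 13.7% in ysE.

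**Figure D3:**
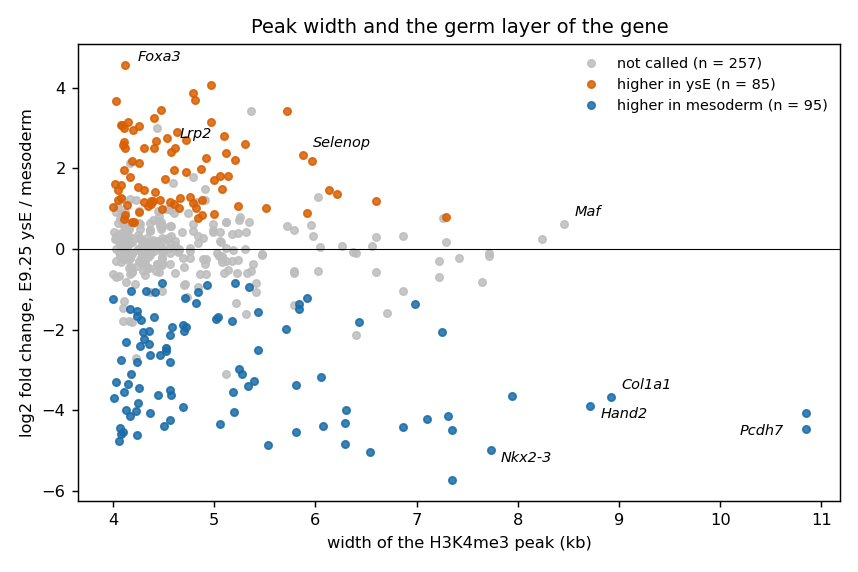
Log2 fold change of E9.25 ysE over E9.25 VYS mesoderm against the width in kb of the broadest H3K4me3 peak at each member gene; orange and blue points passed the edgeR test (85 and 95 genes) and 257 grey points did not. At 6000 bp or more 20 genes are blue and 4 orange, and genes that share a peak are separate points.

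Liver and ysE at E12.5 both make plasma proteins, and the comparison asks which members set them apart. It rests on 1 ysE library prepared with its own non-stranded protocol, so that tissue and protocol cannot be told apart and the spread of the ysE library was taken from the other groups. Of 437 members 136 (31.1%) were higher in ysE, where 22.7% of all genes were, and 104 (23.8%) were lower, where 22.5% of all genes were (edgeR, adjusted p below 0.05). The peaks were called in whole yolk sac, which holds ysE, so a gap to all genes is not independent of how members were chosen. At shorter peaks, called in the same tissue, 27.4% were higher and 23.0% lower. Beside this, the summed RPKM of the erythroid genes was 249.1 in ysE and 3438 and 5640 in liver, with 12 of 15 lower, and that of the endothelial genes 1.92 against 217.3 and 225.3, with 16 of 21 lower. Their part in the counts was not tested. Cldn2, a pore-forming claudin (61.5 RPKM in ysE against 0.101 and 0.265 in liver), Tmem37 (145.4 against 0.336 and 0.773), Lrp2 (253.1 against 0.897 and 1.08), the glutathione peroxidase gene Gpx3 (304.0 against 2.17 and 1.63) and Tmem30b (30.6 against 0.208 and 0.228) rose most. Afp passed narrowly, at a log2 fold change of 4.24 (SE 1.54, adjusted p = 0.047, edgeR), and lost its call when either liver library was left out, with adjusted p up to 0.184. Zeb2 fell most among the genes with counts in both tissues, at 0.048 RPKM in ysE and 19.1 and 17.0 in liver, together with its antisense partner Zeb2os, whose reads cannot be told from those of Zeb2 in the non-stranded library. Snai2 and Tcf21 had no read in E12.5 ysE, and were at least 17.6-fold and 44.8-fold lower there than in liver if 3 counts are taken as the floor of the ysE library. B130024G19Rik, beside Nr2f2, was at least 128.9-fold lower by the same floor. Rbp4, for the carrier of retinol, did not pass the test, at 307.6 RPKM in ysE and 173.9 and 224.4 in liver (adjusted p = 0.537, edgeR).

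Against cystic EBs, 99 of 437 members (22.7%) were higher in E12.5 ysE, where 18.7% of all genes were, and 98 (22.4%) were lower, where 20.3% of all genes were. Here too a gap to all genes is not independent of the choice of peaks in a tissue that holds ysE. At shorter peaks the shares were 22.3% and 20.5%, so those of the members lay within a few percentage points of them. Fitted without the liver and E9.25 libraries, 14.1% and 12.7% passed. Of the endothelial genes 14 of 21 were lower in ysE, and their summed RPKM was 36.7 to 111.9 in EBs. Of the neural genes 9 of 17 tested were lower, at sums of 0.584 in ysE and 35 to 61.4 in EBs. Their part in the counts was not tested here either. For the fit without the liver and E9.25 libraries the shares of all genes are not given. Trf rose most, at a log2 fold change of 10.15 (SE 1.23, adjusted p = 0.00027, edgeR), followed by Fgg (8.70), Fcgrt (7.75), Maob (7.70) and Afp (7.54). Foxa3 was at 58.0 RPKM in E12.5 ysE and at 3.77 to 5.58 in the EB libraries, and Cebpa, a leucine zipper factor of liver and fat, at 37.0 against 0.286 to 0.919. Of the endoderm regulators Gata6, Nr2f2 and Tcf7l2 were lower in ysE, the latter pair at log2 fold changes of −1.77 and −1.79 (adjusted p = 0.0321 and 0.0311, edgeR). Both lost the call when only the groups compared were fitted, and Nr2f2 also without the day 15 EB library of clone B (adjusted p up to 0.0915 and 0.096). Gata6 stood at 1.44 RPKM in ysE and 5.44 to 13.3 in EBs (log2 fold change −2.38, adjusted p = 0.00568, edgeR). Lower in ysE were also Jag1, a Notch ligand (0.042 RPKM against 2.65 to 6.88), Hand1 (0.086 against 1.05 to 7.48) and the coreceptor gene Nrp1 (0.243 against 7.68 to 36.8), which overlaps Mir1903 and can share reads with it. Snai2 was at least 41.6-fold and Tcf21 at least 9.96-fold lower than in EBs by the floor of 3 counts, but Tcf21 (adjusted p = 0.0479, edgeR) lost its call without the day 10 or day 15 EB library of clone A, without the day 15 library of clone B and with only the groups compared (up to 0.079). The comparison with liver and that with EBs share the E12.5 ysE library, so their calls are not independent of each other. Against EBs, too, tissue cannot be told apart from the protocol of this single library.

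The E9.25 and E12.5 comparisons share no library and can be set side by side. Both come from 1 fit of all 11 libraries, however, so they share each transcript's estimate of spread and their calls are not independent. Of the 85 members higher in E9.25 ysE than in mesoderm, 67 (78.8%) were higher in E12.5 ysE than in liver and 0 were lower, where of all 2561 genes with that E9.25 call 69.2% were higher and 3.55% lower. Of the 95 members higher in mesoderm, 10 (10.5%) were higher in E12.5 ysE than in liver and 52 (54.7%) were lower, against 3.71% and 62.8% of all 3018 such genes. Against cystic EBs, the 85 gave 57 higher (67.1%) and 1 lower (1.18%), where all such genes gave 64.3% and 4.37%. The 95 gave 5 higher (5.26%) and 62 lower (65.3%), where all gave 4.34% and 58.4%. The differences between members and all genes were not tested.

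CpG methylation of the members was read from 3728717 to 5542839 CpG calls per bisulfite library, at 1.8 to 2.21 reads per call on average. No calls were found on chromosomes 19, X and Y and next to none on 13, which hold 59 of the 372 members, and liver had none on chromosome 15, with 19 members. The members with at least 5 reads numbered 281 to 310 per library, at a median of 19 to 31.5 reads. Median methylation was 22.1% ± 1.43 (SD, n = 2) in ysE, 37.5% ± 4.07 (n = 2) in liver and 40.4% ± 0.912 (n = 2) in cystic EBs. Shorter peaks gave 19.1% ± 1.29, 35.9% ± 3.63 and 41.4% ± 2.02. Both ysE libraries lay below all 4 others, in broad and in shorter peaks. All these peaks were called in whole yolk sac, which holds ysE, so this order is not independent of how the peaks were chosen. Broad peaks stood 2.87 and 3.08 percentage points above shorter peaks in the ysE libraries, 1.29 and 1.91 above in liver, and 3.12 points below and 1.03 above in EBs, so that only in the EBs did the sign differ between the crosses. The whole libraries ran in the same order, the share of methylated reads being 67.8% and 60.1% for ysE, 77.6% and 79.8% for liver and 87.0% and 82.6% for EBs.

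In the central 1 kb broad peaks lay below shorter peaks in both liver and both EB libraries and in the CxF library of ysE (1.59 points), and above them in its FxC library (1.81 points). There the median of the members was 11.9% ± 1.42 in ysE, 17.7% ± 1.52 in liver and 22.5% ± 3.54 in EBs (SD, n = 2), and that of shorter peaks 11.8% ± 0.983, 22.5% ± 3.54 and 34.3% ± 1.39. In EBs the centre of broad peaks thus lay 10.3 and 13.3 points below that of shorter peaks. A central window lies farther from the edges of a broad peak than from those of a short one, and 108 to 179 members had 5 reads in it. In a peak under 1 kb the window was the whole peak, edges included, and the first quartile of the widths of shorter peaks was 591 bp. In the profile around the centres, pooled over peaks, methylation of the members in ysE was 25.4% ± 1.31 in the 500 bp before the centre and 22.5% ± 3.43 between 1000 and 1500 bp after it. Shorter peaks had 28.2% ± 1.01 and 59.5% ± 2.5 in the same bins. From 4000 to 4500 bp after the centre both were at the level of their surroundings, at 72.0% ± 3.20 and 68.7% ± 3.61.

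**Figure D4:**
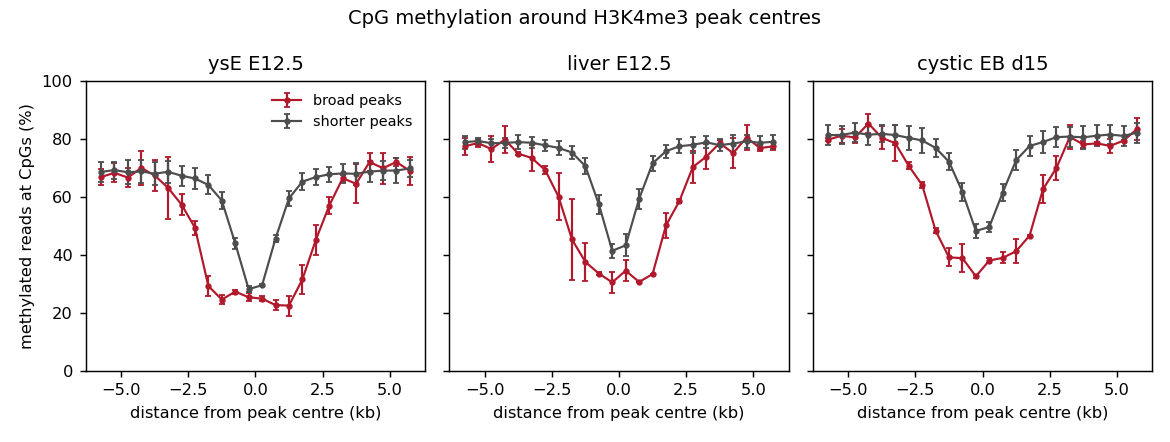
Methylated reads at CpGs (%) against distance from the peak centre (kb, bins of 500 bp) for broad (red) and shorter (grey) peaks in ysE, liver and cystic EBs. Points are the mean of the CxF and FxC libraries and bars 1 SD (n = 2), with the ribosomal repeat left out. The trough of the broad peaks is wider in all 3 tissues, which follows from the choice by width. At 1000 to 1500 bp in ysE, inside every broad peak and outside most shorter ones, broad peaks are at 22.5% and shorter peaks at 59.5%.

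The methylation of the members in ysE differed with the layer in which their gene was higher. At the 82 broad peaks whose called genes were higher in E9.25 ysE, the median was 14.7% ± 1.25 (SD, n = 2) in ysE, 46.4% ± 5.05 in liver and 39.3% ± 3 in EBs. At the 89 whose genes were higher in mesoderm it was 33.5% ± 2.51, 31.1% ± 8.58 and 43.6% ± 1.25. The 201 without a call gave 21.2% ± 1.70, 36.3% ± 2.33 and 38.3% ± 0.276. Each library's median was taken over the peaks with at least 5 reads in it. These were 59 to 65 of the 82, 69 to 77 of the 89 and 153 to 168 of the 201. In both ysE libraries the median was lower at ysE genes, with 15.6% and 13.8% against 35.2% and 31.7% at mesoderm genes, although single peaks overlapped (Zeb2, a mesoderm gene, 13.3% and 13.8%, and Lrp2, a ysE gene, 13.9% and 50%). In each liver library the order of the medians was reversed, with 42.9% and 50% against 25% and 37.1%. In EBs the classes differed by 1.29 and 7.30 points. These are values of peaks, which are not replicates, and the difference was not tested. Shorter peaks were not split by layer, so the values do not show whether the difference is particular to broad peaks.

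**Figure D5:**
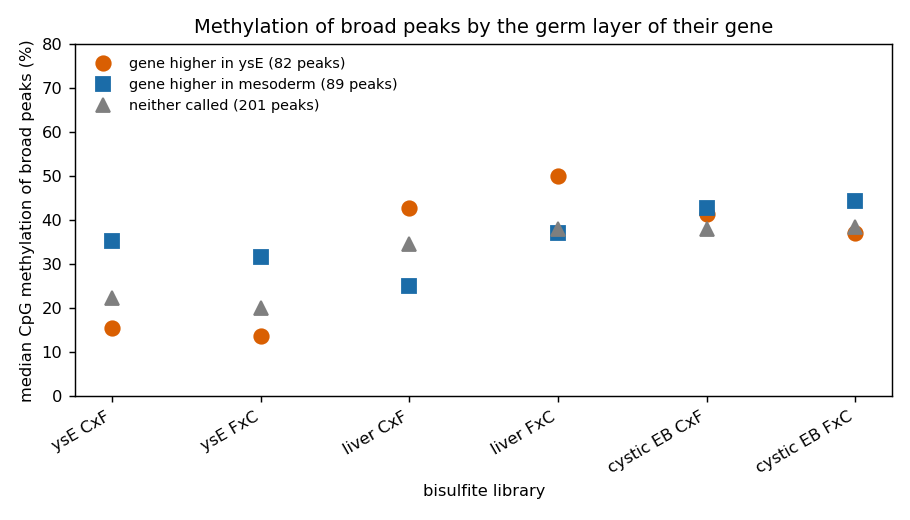
Median CpG methylation (%) in each of the 6 bisulfite libraries, over broad peaks with at least 5 reads in that library, by the layer in which the peak's gene was higher at E9.25. In both ysE libraries the peaks of ysE genes (15.6% and 13.8%) lie below those of mesoderm genes (35.2% and 31.7%), and in both liver libraries above them.

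Values of single peaks are given next. The peak over Fgg (chr3:83007640-83011664) was methylated at 24% and 25% in the ysE libraries, 94.7% and 97.7% in liver and 88.6% and 93.3% in EBs, and no ysE library overlapped another tissue. Pooled, these are 12 of 49 reads in ysE (24.5%, 95% exact binomial interval 13.3% to 38.9%), 78 of 81 in liver (96.3%, 89.6% to 99.2%) and 59 of 65 in EBs (90.8%, 81.0% to 96.5%). Intervals cover counting error only, and reads at neighbouring CpGs are not independent. The Afp peak (chr5:90490499-90494934) had 4% and 34.2% in its ysE libraries, against 67.4% and 76.9% in those of liver and 95.5% and 77.5% in those of EBs. In the Afp window printed above, 0 of 5 reads were methylated in ysE, which allows up to 60% at a floor of 3 reads, 6 of 8 in liver and 8 of 8 in EBs.

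The mesoderm regulators varied. Bmp4 (chr14:46385008-46390819) had 77.1% and 47.6% in ysE and 10.0% and 9.21% in liver, and Meis1 (chr11:19014462-19021165) 53.2% and 30.6% against 3.45% and 0%. Hand2 (chr8:57317631-57326347) had 78.7% and 36.6% in ysE against 34.8% and 36.4% in liver. EBs had 64.3% and 73.1% there, within the range of the ysE libraries. Hand1 showed a like gap between its ysE libraries, at 76.5% and 31.7%. Others differed little from liver or lay below it: pooled over the crosses, Tbx20 had 39.9% in ysE and 39.8% in liver, Snai2 57.9% and 56.2%, Zeb2 13.5% and 11.8%, and Tbx3 11.8% and 18.5%. Over the mesoderm regulators at broad peaks methylation in ysE ranged from 11.8% to 71.8% with a median of 50.5%, and over the ysE genes from 9.43% to 40.5% with a median of 23.7%. For the regulators the median was 17.6% in liver and 55.9% in EBs. For the ysE genes it was 64.5% in liver and 72.1% in EBs, over the 4 and 5 with reads. In the printed Meis2 window 2 of 13 reads were methylated in ysE and 0 of 8 in liver and 0 of 9 in EBs, which allow up to 37.5% and 33.3% by that floor. The whole Meis2 peak had 45.7% in ysE, 12.2% in liver and 8.62% in EBs. By cross it had 62.7% (CxF) and 15.2% (FxC) in ysE and 8.89% and 17.2% in liver, so the gap to liver rests on the CxF library of ysE.

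The test (edgeR on methylated and unmethylated reads, adjusted p below 0.05) covered all peaks with at least 5 reads in each of the 6 libraries. Of these peaks 252 were broad, and few peaks were called. The Fgg peak was the only broad peak called between liver and ysE (adjusted p = 0.0399), where 0.201% of 2991 peaks were called. Its call was lost when any 1 of the 4 libraries was left out, leaving 0 broad peaks. None was called between EBs and ysE, where 0.301% of peaks were, nor between EBs and liver, where 0.0% of peaks were. At an unadjusted p below 0.05, 22 broad peaks were more and 7 less methylated in liver than in ysE, 31 more and 0 less in EBs than in ysE, and 15 more and 3 less in EBs than in liver. Among shorter peaks these shares were 8.03% and 0.73%, 10.4% and 0.548%, and 2.92% and 1.5%, against 8.73% and 2.78%, 12.3% and 0.0%, and 5.95% and 1.19% of the broad. In simulated data a difference of 40 percentage points was recovered at 8.5%, 0.0% and 3.0% of peaks in these comparisons, so a peak without a call was not shown to be alike in both tissues.

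Among broad peaks with at least 20 reads in every bisulfite library, 47 in all, those most methylated in ysE were at Plagl1 (78.5% of 130 reads), Rbms3 (66.2% of 80), Hand2 (63.8% of 116), Txnip (62.3% of 77) and Peg3 with Usp29 (61.3% of 150). Plagl1 and Peg3 are imprinted, that is, expressed by parent of origin. Both are expressed from the paternal allele, with a start region methylated on the maternal allele. Plagl1 was at 85.6% in liver and 85.1% in EBs, and Peg3 at 73.0% and 66.7%. In the printed Peg3 window 16 of 22 reads were methylated in ysE, 9 of 15 in liver and 0 of 9 in EBs, which allows up to 33.3% at a floor of 3 reads. Broad peaks of further imprinted genes, named after their values were seen, lay at Igf2r, with 63.1% in ysE, 56.8% in liver and 70.3% in EBs, and at Gnas and Igf2, with 2 peaks each. One Gnas peak, inside the gene (chr2:174296969-174301806), had 84.2% in ysE, 82.4% in liver and 83.5% in EBs, and the other, at a gene end (chr2:174283141-174289054), 52.9%, 54.9% and 61.7%. The Igf2 peaks had 70.4%, 65% and 64.5% (chr7:142653648-142659439) and 25%, 13.3% and 28.6% (chr7:142659702-142665081), the latter from 15 to 28 reads a tissue. The crosses (CxF and FxC) lay far apart at the former, at 81.1% and 47.1% in ysE and 85.7% and 47.1% in EBs. Its liver value had 2 reads in CxF and 18 in FxC. At the latter the FxC library had 0% in ysE (12 reads) and in liver (8 reads), so all methylated reads of ysE and liver there were from CxF. EBs had 28.6% there in both crosses (21 reads in CxF and 7 in FxC). Peg3 was transcribed at 222.7 RPKM in E12.5 ysE and Igf2 at 296.2. Least methylated in ysE were the peaks at Gpbp1l1 and Tmem69 (5.69% of 123 reads), at a cluster of transfer RNA genes on chromosome 11 (5.88% of 102), at Hivep2 (7.81% of 64), inside Fat1 (8.24% of 85) and at Anp32a (11.6% of 69). In EBs these 5 stood between 4.29% and 34.8%.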

How the data were processed

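RNA-seq, bisulfite and H3K4me3 ChIP reads were aligned to mm10 with GSNAP (2012-12-12) by the authors. They deposited raw read counts per RefSeq transcript and RPKM values made from them, per CpG the percent of methylated reads with the count of reads behind it, called with BisSNP, and MACS 1.4.2 peaks with a score, the negative log10 p-value times 10, set against an input library.

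Members and lists were chosen with earlier results of these data known. A gene was at a peak if a start site (RefSeq, GRCm38.p6), or either end where the strand was unknown, lay in or within 1 kb of it, and was represented by its transcript of highest mean RPKM. Counts of all 11 libraries (40453779 to 169981821 per library) were fitted per transcript with edgeR 4.0.16 (R 4.3.3), quasi-likelihood test, TMM scaling, with Benjamini-Hochberg adjustment over 24858 transcripts, each group a term. The biological coefficient of variation was 0.3995. Background shares count 1 transcript per gene. Methylated and unmethylated reads were summed per peak, and peaks with at least 5 reads in all 6 libraries were tested with edgeR. Named were the genes at the 20 widest peaks, the 10 highest in E12.5 ysE, listed genes, the 5 largest calls per direction and contrast, peaks of extreme methylation and those beside the limit, and further ones where said. Alternatives were other width limits, gene distances, read minimums, DESeq2 1.42.0, replicate blocks and left-out libraries. Both fits were tested on simulated data, where 45% of 4-fold changes were recovered between E9.25 ysE and mesoderm, 19% between E12.5 ysE and liver and 44% between E12.5 ysE and EBs. The E9.25 replicate letters and the crosses were not taken as pairs: deviations correlated at r = −0.1202 over 17239 transcripts, and at −0.043, −0.0168 and −0.183 over 106 peaks. Repeat and exon-part count tables were not used, and some member genes are not reported here.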

Additional observations from a re-analysis of the deposited data

Results flagged for a closer look

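In 71 groups of 4 libraries, 2 (2.82%) held a library far from the other 3 by Dixon's ratio of its gap to the range, past its 95% critical value, where chance gives about 1 in 20. Kmt2d, an H3K4 methyltransferase gene, had 3.72, 3.9, 3.95 and 2.05 RPKM in the cystic EB libraries, a ratio of 0.8803. Tbx3 had 8.02, 3.71, 4.03 and 3.43 RPKM, a ratio of 0.8697.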

How the results depend on the processing

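The E9.25 replicate letters mark no stated pairing. With the replicate block, 32.1% of members were higher and 32.79% lower in E9.25 ysE than in mesoderm, with the letters crossed (an alternative chosen after seeing the data) 34.18% and 33.95%, and with only these groups fitted 33.95% and 33.49%, against 19.45% and 21.74%. Leaving out 1 library gave 8.736% to 12.9% higher and 11.95% to 17.28% lower. The shares of all genes were not set beside those of the members under any other fit. With a limit of 5000 bp 33.06% were lower and 13.71% higher. With only the groups compared, 14.12% were higher and 12.73% lower than in EBs. Between liver and ysE, 3 peaks were called at 3000 bp, 0 at 5000 bp, 0 in the central 1 kb, where only 8 broad peaks could be tested, 0 with the replicate block by cross and 0 without any 1 library. Between EBs and ysE, 2 were called at 3000 bp, 1 at 10 reads and 2 at 20 reads.

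With reads pooled over all broad peaks, which gives a share of reads and not a median, ysE had 29.43% and EBs 43.9% methylated. Without the ribosomal repeat these shares were 28.61% and 43.37%. The median of broad peaks in ysE was 11.91% in the central 1 kb, 20.53% at 3000 bp and 28.17% at 5000 bp. In EBs it was 22.5%, 38.75% and 43.17% in that order, and in liver 17.75% in the central 1 kb. Shorter peaks of EBs gave 46.13% pooled and 34.31% central, those of liver 41.7% and 22.5%, and those of ysE 27.63% and 11.81%. The median RPKM of members at 3000 bp was 8.494 in E9.25 ysE, 9.741 in mesoderm and 6.557 in liver, and at 5000 bp it was 4.84 in liver, and 3.862 in ysE of E12.5 and 3.784 in that of E9.25, there below shorter peaks. With gene ends within 5 kb it was 6.429 in E9.25 ysE, 8.078 in mesoderm and 5.308 in liver, and with the end inside the peak 6.223 in liver. Over genes of at least 1 RPKM it was 10.39 in EBs, 8.485 in liver, 10.92 in mesoderm, 12.25 in ysE of E9.25 and 11.95 in that of E12.5. There were 1385 peaks and 1623 genes at 3000 bp, 110 and 125 at 5000 bp, and 779 and 950 with gaps of at most 1 kb merged. The cause of these shifts was not tested. Of named genes called, 23 of 42 lost their call under at least 1 alternative between E9.25 ysE and mesoderm, 11 of 42 against liver and 19 of 47 against EBs, and 0 reversed. Of those not called, 12 of 22, 9 of 23 and 4 of 15 gained a call under at least 1 alternative.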
